A study of Mus musculus with 2 samples.

Results

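The X-linked microRNA cluster of Mir322, Mir503, Mir351, Mir542, Mir450-2, Mir450-1 and Mir450b was measured in the adrenal glands of young mice. These 7 genes were taken by their symbols in the GENCODE M21 annotation out of 2202 annotated miRNA genes in each count table, 142 of which lie on the X chromosome. The libraries were small RNA libraries from adrenal tissue of female B6CASTF1/J mice, an F1 hybrid of the C57BL/6J and CAST/EiJ strains, at 14 days of age. The series has 1 group of 2 such libraries, biological replicates 2 and 1 by the labels, with no treatment and no second condition. Replicate 2 is described as from a numbered female and replicate 1 as from 3 females, but the donor identifier is the same, so the labels do not settle whether the animals were separate. The whole gland was used, so fewer cells of a type and less RNA per cell cannot be told apart. No miRNA that defines the adrenal gland was on the lists used here, and the tissue label was not checked in that way.

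MicroRNAs are short RNAs cut from the arms of a hairpin precursor by Drosha and Dicer. Loaded into Argonaute, they repress messenger RNAs that pair with the seed, bases 2 to 8 of the mature strand. Genes of a cluster can be cut from a common primary transcript, yet the mature miRNAs of 1 transcript need not reach equal levels, since processing and stability differ between hairpins. miR-322 is the mouse counterpart of human miR-424, and with miR-503 it belongs to the extended miR-15 and miR-16 family, which represses cyclins and Cdc25a and favours exit from the cell cycle. In the adrenal, human miR-503 is known as raised in adrenocortical carcinoma.

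The mature sequences show which of the 7 genes share a seed. Targets were neither predicted nor measured. All 7 matched entries of RefSeq (build GRCm38.p6). The 5′ arms follow in the order of the genes along the minus strand, with the seed in capitals.
miR-322-5p: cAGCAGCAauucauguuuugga
miR-503-5p: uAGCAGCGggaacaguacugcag
miR-351-5p: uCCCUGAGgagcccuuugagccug
miR-542-5p: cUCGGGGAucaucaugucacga
miR-450a-5p: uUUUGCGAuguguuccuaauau
miR-450b-5p: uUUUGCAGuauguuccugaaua
Between different genes of the cluster, 5′ seeds were equal only for Mir450-1 and Mir450-2, which both give miR-450a-5p. The seed of miR-322-5p stood in 10 other mouse genes of the table, among them Mir15a, Mir15b, Mir16-1, Mir16-2, Mir195a and Mir497. miR-503-5p shared bases 2 to 7 with the same family, 11 genes with Mir322 among them, but its full seed with none. The seed of miR-351-5p stood in 5 other genes, among them Mir125a, Mir125b-1 and Mir125b-2. For Mir542 the 3′ arm, the one known to repress survivin in human cells, is shown as well, with the 3′ arms of the Mir450 genes.
miR-542-3p: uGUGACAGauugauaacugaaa
miR-450a-1-3p: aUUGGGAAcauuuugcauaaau
miR-450a-2-3p: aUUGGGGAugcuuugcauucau
miR-450b-3p: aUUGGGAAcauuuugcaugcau
On this arm Mir450-1 and Mir450b had equal seeds and Mir450-2 did not. The counts are per hairpin gene, so the 5′ and 3′ arms cannot be told apart in any value that follows.

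The 7 hairpins lie on the minus strand of chromosome X within 6353 bases, from 53047997 to 53054349 (mm10, GENCODE M21), between the protein-coding genes Hprt and Plac1. Mir322 (ENSMUSG00000065418.1, 53054255 to 53054349) comes first on that strand. Mir503 (ENSMUSG00000076122.1, 53053984 to 53054054) follows after a gap of 200 bases, and Mir351 (ENSMUSG00000065503.1, 53053255 to 53053353) after a further 630 bases. A gap of 3767 bases, which holds the long noncoding RNA gene Gm28730, separates this trio from Mir542 (ENSMUSG00000076140.1, 53049403 to 53049487). Mir450-2 (ENSMUSG00000076399.1, 53048299 to 53048367), Mir450-1 (ENSMUSG00000065486.1, 53048154 to 53048244) and Mir450b (ENSMUSG00000076050.1, 53047997 to 53048078) end the cluster, with gaps of 1035, 54 and 75 bases before them. In GENCODE M21 none of the 7 overlaps an annotated gene of another name. In RefSeq the long noncoding RNA gene C430049B03Rik runs from 53053112 to 53057190 and spans Mir322, Mir503 and Mir351, whereas GENCODE M21 places that gene outside the cluster, from 53055046 to 53057190. GC content of the hairpins was between 50.5% and 54.9% for Mir322, Mir503, Mir351 and Mir542, and between 30.5% and 36.2% for the 3 Mir450 genes.

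The cluster was plentiful in the gland, and most of its counts came from Mir322. Summed over the 7 genes it held 1.41% of all miRNA counts in replicate 2 (70825 of 5034257; Wilson 95% interval of 1.40 to 1.42) and 2.95% in replicate 1 (111957 of 3797107, 2.93 to 2.97), a mean of 2.18% ± 1.09 (SD, n = 2). Of the counts on all 142 X-linked miRNA genes, the share of the 7 genes was 41.0% (Wilson 95% interval 40.7 to 41.2) in the library of replicate 2 and 54.7% (54.5 to 54.9) in that of replicate 1. All 7 had at least 10 counts in each library, the minimum for a gene to be called detected, which 36 of the 142 X-linked genes and 358 of all 2202 genes met. No count lay on the opposite strand of any member. The reads carried no molecular identifiers, so these intervals cover counting error only.

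Mir322 had 57052 counts in replicate 2 and 98251 in replicate 1. That is 11333 and 25875 CPM (counts after scaling every library to the same total), with a mean of 18604 ± 10283 CPM (SD, n = 2 for this and the other member means). It ranked at 15 among all miRNA genes in replicate 2 and at 10 in replicate 1. Mir322 was above the other 6 genes together in both libraries.

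Mir351, whose product carries the miR-125 seed and is known to repress E2f3 in muscle precursors of mouse, came second. It had 9735 counts in replicate 2 and 8438 in replicate 1, or 1934 and 2222 CPM, with a mean of 2078 ± 204. In CPM its libraries lay closest together, relative to their mean, of the 7 genes. After the scaling between libraries used below, those of Mir503 lay closer. Mir503, which stands between Mir322 and Mir351 in the genome, had 1403 and 1606 counts, or 279 and 423 CPM, with a mean of 351 ± 102. It thus stood far below both of its neighbours in each library.

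Mir542 had 2188 counts in replicate 2 and 3076 in replicate 1, or 435 and 810 CPM, with a mean of 622 ± 265. Mir450b had 355 and 436 counts, or 70.5 and 115 CPM, with a mean of 92.7 ± 31.3. Mir542 was above Mir503 and Mir450b below it in each library.

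Mir450-2 had 61 counts in replicate 2 and 92 in replicate 1, or 12.1 and 24.2 CPM. Mir450-1 had 31 and 58 counts, or 6.16 and 15.3 CPM. These lowest values belong to the copies that cannot be counted in full, because the authors' counting set aside any read with more than 1 match in the genome. The hairpins are printed with the longest run they share, of 25 bases, in capitals.
Mir450-2: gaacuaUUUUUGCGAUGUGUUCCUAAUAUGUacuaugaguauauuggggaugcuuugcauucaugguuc
Mir450-1: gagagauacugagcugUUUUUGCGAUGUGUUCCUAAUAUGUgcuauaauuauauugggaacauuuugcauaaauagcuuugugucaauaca
The shared run holds the whole of miR-450a-5p, so a read of that mature miRNA matches both copies. The counts of Mir450-1 and Mir450-2 therefore give no upper limit for miR-450a-5p. In a global alignment the copies were identical at 60 of 69 aligned bases (87.0%), and Mir450b was identical to Mir450-1 at 61 of 81 (75.3%). None of the mature sequences of the other 5 genes stood whole in another hairpin of the table.

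**Figure D1:**
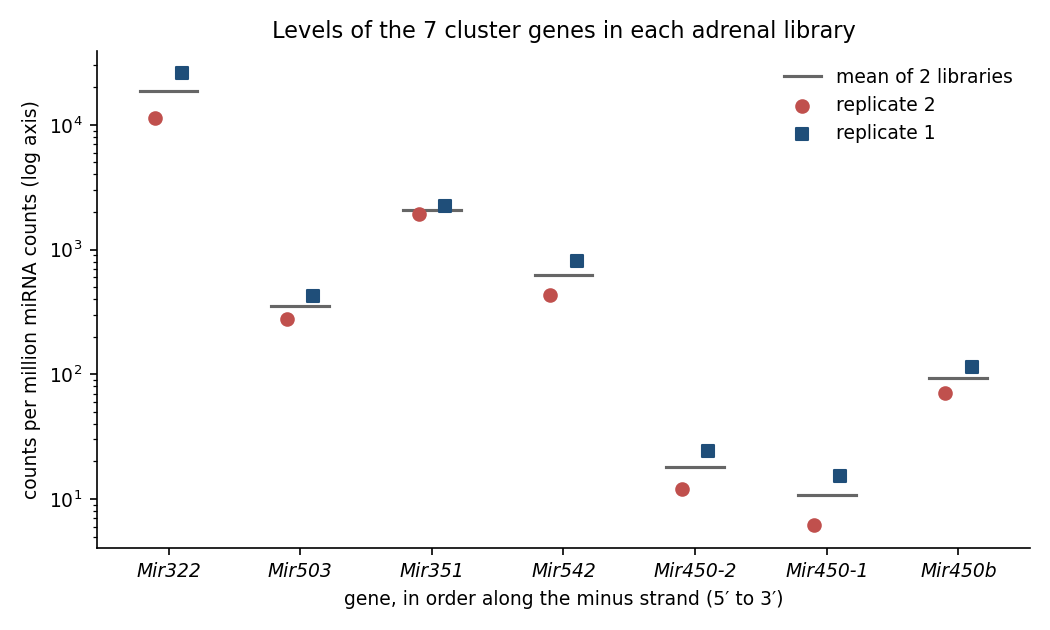
CPM of the 7 genes on a log axis, in their order along the minus strand, with replicate 2 as circles, replicate 1 as squares and the mean of the 2 libraries as a line. Mir322 stands highest at a mean of 18604 CPM, Mir503 lies below both of its neighbours, and Mir450-1 is lowest at 6.16 and 15.3 CPM.

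By mean CPM the order was Mir322, Mir351, Mir542, Mir503, Mir450b, Mir450-2 and Mir450-1, and each library alone gave the same order. The values of the 2 libraries did not overlap between neighbours in this order, except for Mir450-2 and Mir450-1. The closest pair that stayed apart was Mir542, at least 435 CPM, and Mir503, at most 423 CPM. Counts divided by hairpin length, a scale added after the data had been seen, kept the order in both libraries. The hairpins, at 69 to 99 bases, were too alike in length to change it. Per hairpin base, Mir322 had 601 counts in replicate 2 and 1034 in replicate 1, and Mir351 had 98.3 and 85.2. Differences in how well single sequences enter a library were not measured, so the order is one of counts.

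Within the cluster the make-up could be compared without any scaling between libraries. For Mir322 this share was 80.6% (Wilson 95% interval 80.3 to 80.8) in replicate 2 and 87.8% (87.6 to 87.9) in replicate 1, a mean of 84.2% ± 5.09 (SD, n = 2 for these means). Mir351 held 13.7% (13.5 to 14.0) and 7.54% (7.38 to 7.69), a mean of 10.6% ± 4.39. For these members the shares of the libraries lay outside each other's counting intervals. Per count of Mir351 there were 5.86 counts of Mir322 in replicate 2 and 11.6 in replicate 1.

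The other members held a few percent of the cluster or less. Mir542 held 3.09% of the cluster's counts in replicate 2 and 2.75% in replicate 1, and Mir503 1.98% and 1.43%. The 3 Mir450 genes together held 0.631% (0.575 to 0.692) and 0.523% (0.483 to 0.567). The trio of Mir322, Mir503 and Mir351 held 96.3% in replicate 2 and 96.7% in replicate 1. Among the 3 Mir450 genes, Mir450b made up 79.4% (75.4 to 82.9) and 74.4% (70.7 to 77.8), and Mir450-1 6.94% (4.93 to 9.68) and 9.90% (7.73 to 12.6), with the limit on the copies given above. With Mir322 left out, Mir351 held 70.7% of what remained in replicate 2 and 61.6% in replicate 1.

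**Figure D2:**
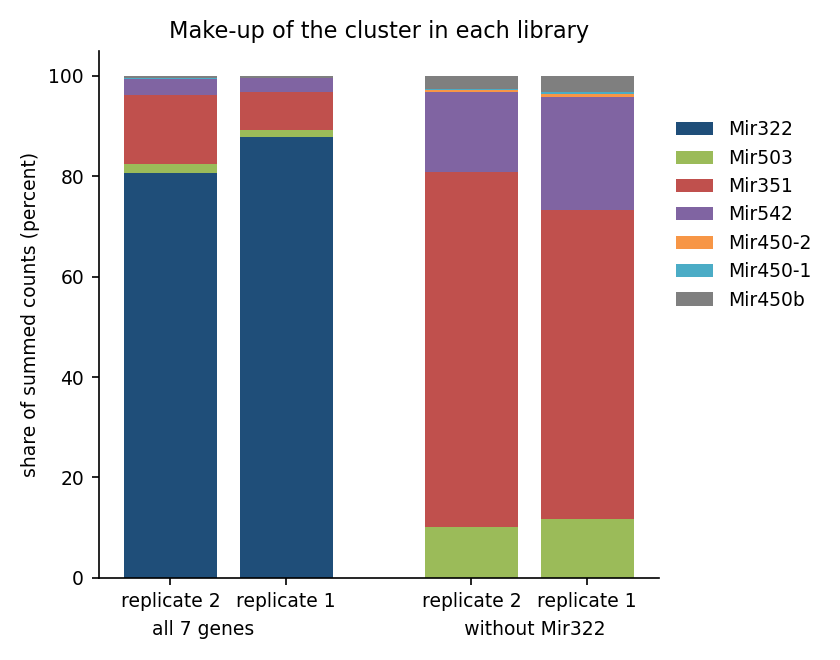
Stacked shares of the cluster's summed counts, in percent, for replicate 2 and replicate 1, with all 7 genes at the left and without Mir322 at the right. Mir322 fills 80.6% and 87.8% of the bars at the left, and Mir351 is the largest part of the bars at the right, at 70.7% and 61.6%.

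How far each gene differed between the libraries was given as a log2 ratio of replicate 2 over replicate 1, after trimmed mean (TMM) scaling, with an exact 95% counting interval. With 1 library on each side there is no test over replicates, and the intervals compare these libraries only. The summed cluster had a log2 ratio of -0.64 (interval -0.65 to -0.62). Mir322 stood at -0.76 (-0.78 to -0.75), Mir542 at -0.47 (-0.55 to -0.39) and Mir503 at -0.17 (-0.28 to -0.07). Mir351 was the only member with a positive ratio, at 0.23 (0.19 to 0.27), and it turned to -0.20 when library totals alone were used for scaling.

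The Mir450 genes had wider intervals because of their low counts. Mir450b stood at -0.27 (-0.48 to -0.07), Mir450-2 at -0.57 (-1.06 to -0.09) and Mir450-1 at -0.87 (-1.56 to -0.23). The intervals of these 3 overlapped each other, and those of Mir322 and Mir351 did not. None of the 7 lay 2-fold or more apart, while 17.9% of the 358 detected miRNA genes did (64 genes). With library totals alone, Mir322 at -1.19 and Mir450-1 at -1.30 lay past 2-fold, as did 27.1% of all detected genes, and the median of all genes moved to -0.48. Under TMM scaling the median log2 ratio was -0.47 over the 7 genes and -0.06 over all 358. The middle 50% of all detected genes ran from -0.51 to 0.41, and Mir322, Mir450-2 and Mir450-1 lay below that range.

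**Figure D3:**
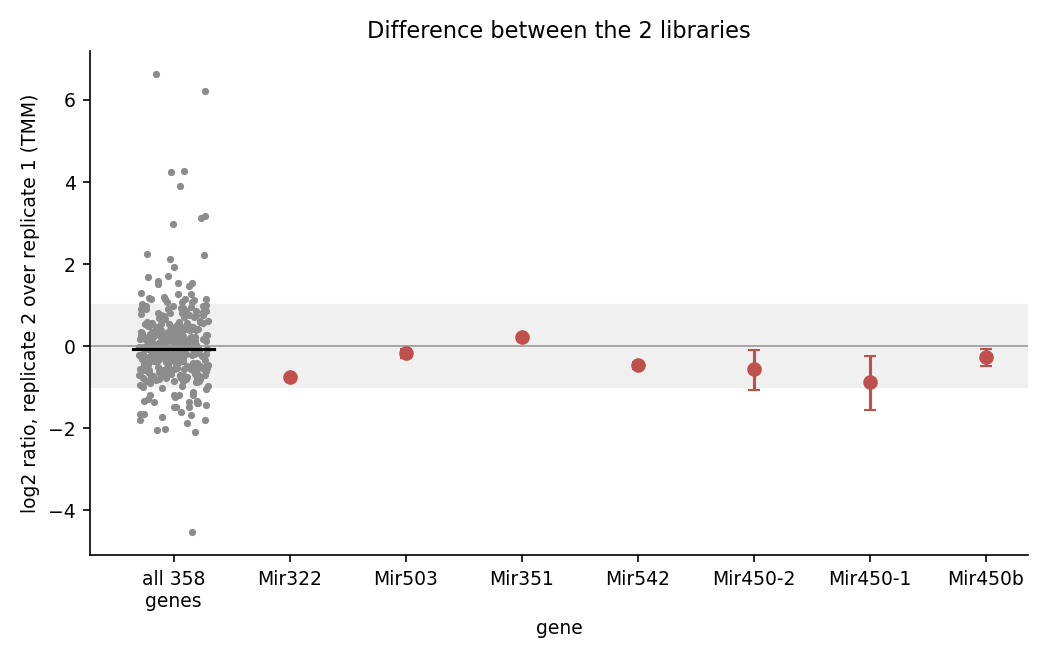
Log2 ratio of replicate 2 over replicate 1 after TMM scaling for all 358 detected miRNA genes (grey points, sideways scatter for display only, black line at their median) and for the 7 genes (red points with exact 95% counting intervals). The shaded band marks less than 2-fold, and all 7 points lie in it, with Mir351 at 0.23 the only one above 0.

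Several marker miRNAs of other tissues and cell types also differed between the libraries. Mir122, the miRNA of hepatocytes, made up 21.5% of the miRNA counts in replicate 2 and 0.290% in replicate 1. The striated muscle list, 2 of 10 members detected, summed to 0.157% and 0.00327%, and Mir206 gave 7815 of its 7901 counts in replicate 2 and most of the 124 in replicate 1. No read was counted on Mir133a-2, Mir133a-1 or Mir1a-1, but miR-1a and miR-133a each come from more than 1 gene, so these zeros give no upper limit for them. The kidney and gut list, 2 of 4 detected, summed to 0.116% and 0.0109%.

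Within the blood cell lists, 1 member of each lay 2-fold or more lower in replicate 2, as did 8.66% of all 358 detected genes. The erythroid list, 3 of 3 detected, summed to 0.0560% and 0.224%, with Mir451a at 1703 and 7059 counts (log2 ratio -2.03) and a median member ratio of -0.37. Leukocyte genes, 5 of 5 detected, summed to 0.220% in replicate 2 and 0.342% in replicate 1, with Mir142 at 2025 and 5596 counts (log2 ratio -1.44), while the median member ratio was 0.27. Smooth muscle genes, 2 of 2 detected, summed to 3.27% and 4.65%, with Mir143 at a log2 ratio of -0.13 and Mir145a at 1.27. Endothelial Mir126a held 14.1% and 14.2%, and neuroendocrine genes, 2 of 4 listed and matched, 2.00% and 3.86%. These shares are of totals that include Mir122. Without it, smooth muscle genes held 4.16% in replicate 2 and 4.66% in replicate 1, endothelial Mir126a 17.9% and 14.3%, and leukocyte genes 0.280% and 0.343%. Where the reads of these lists came from, and their part in the ratios of the cluster, were not tested. With Mir122 left out of totals and scaling, the cluster held 1.79% of counts in replicate 2 and 2.96% in replicate 1. The cluster's log2 ratio was again -0.64, but TMM scaling trims genes with extreme ratios, so leaving out Mir122 could hardly move it.

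Mir322 had the most counts of its seed family in both libraries. The other members with detected counts read as follows on their 5′ arm, with the seed in capitals, and all carry the seed of miR-322-5p printed above.
miR-15a-5p: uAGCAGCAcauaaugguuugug
miR-15b-5p: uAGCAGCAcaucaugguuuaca
miR-16-5p: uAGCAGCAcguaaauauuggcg
miR-195a-5p: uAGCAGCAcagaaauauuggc
miR-497a-5p: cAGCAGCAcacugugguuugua
Among the counts on Mir322 and these genes, the share of Mir322 was 50.7% (57052 of 112579, with a Wilson 95% interval of 50.4 to 51.0) in replicate 2 and 75.0% (98251 of 131027, with 74.8 to 75.2) in replicate 1. Mir195a had 25812 counts in replicate 2 and 5574 in replicate 1, a log2 ratio of 2.23 (2.19 to 2.28). It was the 1 gene of these 6 relatives that lay 2-fold or more apart, as did 17.9% of all 358 detected genes. With Mir195a left out, a choice made after its values had been seen, the share of Mir322 was 65.8% and 78.3%. The median log2 ratio of the 6 relatives was 0.17.

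The relatives apart from Mir195a differed less between the libraries. Mir15a had 14149 counts in replicate 2 and 10772 in replicate 1, and Mir15b 6430 and 6412. Mir16-1 had 5049 and 6158 counts and Mir16-2 1514 and 1744, but both give miR-16-5p, so reads of it match both copies and their counts are uncertain in the way of the Mir450 copies. The share of Mir322 among all miRNAs with its seed may for that reason be lower than counted. The lead of Mir322 is likewise one of counts. Mir497 had 2573 and 2116 counts, and overlaps Mir497b on the opposite strand, so that it had 0 counts in both libraries in the unstranded column. Mir195b, Mir6342, Mir6353 and Mir6419, the remaining genes with this seed, had 0 counts in both libraries, and a count of 0 allows up to 3 counts, or 0.596 CPM in replicate 2 and 0.790 CPM in replicate 1.

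Mir351 held a smaller part of the genes with its own seed. miR-125 is known for roles in development and differentiation, and its mature forms read as follows.
miR-125a-5p: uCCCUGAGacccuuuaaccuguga
miR-125b-5p: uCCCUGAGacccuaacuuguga
Among the counts on Mir351, Mir125a, Mir125b-1 and Mir125b-2, the share of Mir351 was 22.5% (Wilson 95% interval 22.1 to 22.9) in replicate 2 and 39.1% (38.5 to 39.8) in replicate 1. Mir125a had the most counts of these genes in both libraries, at 31771 and 11165, with a log2 ratio of 1.53. Mir125b-1 had 1257 and 860 counts and Mir125b-2 552 and 1114. These copies share miR-125b-5p, so their counts give no upper limit for it. The share of Mir351 among all miRNAs with the seed may therefore be lower, and the lead of Mir125a is one of counts. Mir6367 and Mir6394, which also carry it, had 0 counts in both libraries.

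**Figure D4:**
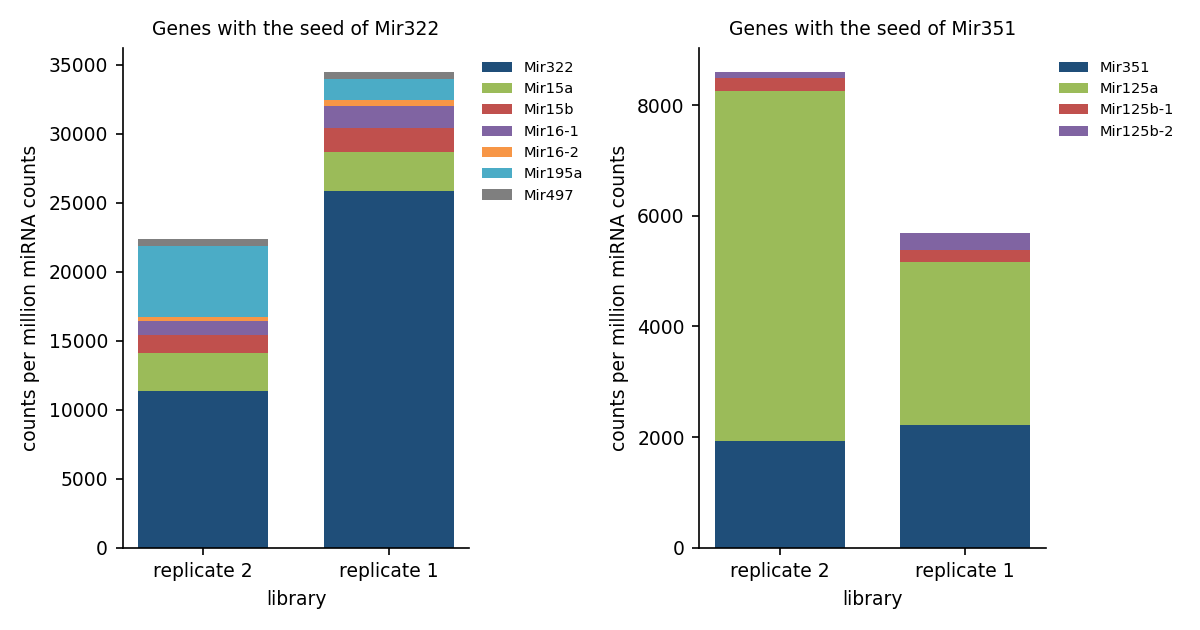
Stacked CPM in replicate 2 and replicate 1, for Mir322 with the detected genes that share its seed (left) and for Mir351 with those that share its own (right). Mir322 fills 50.7% and 75.0% of the bars at the left, and Mir351 22.5% and 39.1% of the bars at the right, where Mir125a is the largest part.

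Another X-linked cluster, from Mir106a to Mir363, lies 305429 bases away on the same strand and is related to the Mir17 cluster, which promotes proliferation. The cluster of Mir322 held 1.41% and 2.95% of all miRNA counts in replicates 2 and 1, and the 6 genes from Mir106a to Mir363 held 0.00886% and 0.0295%. The summed log2 ratio was -0.64 for the cluster of Mir322 and -1.30 (-1.47 to -1.15) for the other. Of the 7 genes around Mir322, 0 lay 2-fold or more lower in replicate 2, against 2 of 4 detected genes of the Mir106a cluster, Mir106a at -2.04 and Mir20b at -2.09, and 8.66% of all detected genes. The other detected genes of the Mir106a cluster were Mir363, at -0.35 (-0.83 to 0.12), and Mir92-2, at 0.10 (-0.20 to 0.41). Mir92-2 and Mir19b-2 have copies in the Mir17 cluster, so the sum of the Mir106a cluster is uncertain.

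The genes most like each member were sought by the distance between their log2 values of CPM plus 1 over the 2 libraries, which measures likeness of level more than of change. Nearest to Mir322 were Mir10b (distance 0.43), Mirlet7d (0.46) and Mir375 (0.74). Mir351 had Mir320 (0.24), Mir382 (0.26) and Mir28a (0.39) as its nearest genes, and Mir503 had Mir501 (0.13), Mir29c (0.16) and its relative Mir16-2 (0.16). Mir542 stood next to Mir132 (0.04), Mir152 (0.11) and Mir27a (0.21). The nearest genes of Mir450b, Mir450-2 and Mir450-1 were Mir350 (0.24), Mir8114 (0.03) and Mir511 (0.08), followed by Mir376b and Mir665, Mir363 and Mir384, and Gm23935 and Mir325. Members of the cluster were left out of this search.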

How the data were processed

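For each of 2 libraries the authors deposited raw read counts per miRNA gene, whole numbers with no normalization. Per the notes deposited with each table, the build was mm10 and the annotation GENCODE M21. The aligner was not given in the sources used here, nor was the counter. Each table holds 4 summary lines, kept out of library sizes, and 3 count columns after the identifier. Counted with the identifier column as the first, column 3 was read as the gene's own strand. In replicate 2, 23.9% of reads were unmapped, 25.0% multimapping (set aside) and 6.12% on no feature, against 26.9%, 28.0% and 9.65% in replicate 1.

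All 2202 identifiers matched GENCODE M21. CPM, shares and Wilson 95% intervals were computed over all miRNA genes. Log2 ratios used TMM factors from edgeR over detected genes (0.862 for replicate 2 and 1.16 for replicate 1), a prior count of 0.5 and exact Clopper-Pearson intervals. They were tried on simulated libraries with known ratios and counting error only. Such data cannot show how the intervals fare for libraries that differ beyond counting error. The tables were not copies of each other (Mir122 had 1080041 counts in replicate 2 and 10996 in replicate 1) and were kept as 2 samples, as labelled. The labels do not settle whether the animals were separate, so the SDs may not measure spread between animals. The named genes are the 7 members, the seed relatives, the neighbouring X-linked cluster and the 3 nearest genes of each member. Members and lists were chosen with earlier results of these data known. Of 4 neuroendocrine symbols, 2 matched. Alternatives were the unstranded column, each replicate left out, Mir122 left out, library totals, DESeq2 size factors, a prior count of 5, count minimums of 1 and 100, Mir450-1 and Mir450-2 left out, and thinning. The software was edgeR 4.0.16 and DESeq2 1.42.0 under R 4.3.3, with scipy 1.17.1, pandas 2.3.3, Biopython 1.88 and matplotlib 3.10.9 under Python 3.11.15.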

Additional observations from a re-analysis of the deposited data

How the results depend on the processing

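The log2 ratio of the summed cluster, -0.64 as reported, was -0.61 in the unstranded column, -0.58 with DESeq2 size factors and -1.07 with library totals alone, negative under each. Under library totals 2 members, Mir322 at -1.19 and Mir450-1 at -1.30, lay 2-fold or more apart instead of 0. So did 97 of all detected genes (27.1%) instead of 64 (17.9%), while the median of all genes moved from -0.06 to -0.48. A count minimum of 1 gave 155 such genes and one of 100 gave 37, since more or fewer genes were tested. Members past 2-fold were 0 of 7 detected at the minimum of 1 and 0 of 5 at that of 100. The numbers of all genes tested at these minimums are not given here, so these zeros have no share to be read against. With 2 libraries, leaving out a replicate gives the other library's own value. The cluster's share thus lay between 1.41% and 2.95%, and the share of Mir322 in it between 80.6% and 87.8%. In the unstranded column the mean share of the cluster was 2.89%, against 2.18% as reported. Over the alternatives that rescale or recount, the log2 ratio of Mir322 ran from -1.19 to -0.71, that of Mir450-1 from -1.30 to -0.79 and that of Mir351 from -0.20, under library totals, to 0.29. No paired analysis was possible because there is 1 group. Depth limits mainly Mir450-1 and Mir450-2, at 31 to 92 counts.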
